A study of Mus musculus with 4 samples.

Results

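Mast cells store a set of proteases in their secretory granules, and 10 genes of this set were examined: the chymases Cma1, Mcpt1, Mcpt2 and Mcpt4, the tryptases Tpsb2 and Tpsab1, the carboxypeptidase Cpa3, and the serine proteases Mcpt8, Ctsg and Gzmb. They were taken by gene name from the arrays' own annotation, outside the control spots. Each gene was read from its probe with the highest mean signal, so the 10 genes rest on 10 of their 11 probes, among 29675 genes on the array. All 10 were found.

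The study used Swiss 3T3 cells, a mouse fibroblast line, on Agilent arrays labelled with a single dye (Cy3). Fibroblasts that were Lpar1+/+ (WT) and Lpar1-/- (KO) were each sampled at 0 h and at 24 h of coculture with WT mast cells, with 1 array per group and RNA pooled from 3 samples on each. Lpar1 encodes a receptor for the signalling lipid lysophosphatidic acid, and the KO fibroblasts are a single-cell CRISPR clone. The mast cells were grown from bone marrow with IL-3 (10 ng/ml), and the coculture medium held 100 ng/ml of the Kit ligand SCF. The cells were separated by trypsin and reseeding or by beads against CD117 (Kit), and the labels do not say which way served which array. Nor do they say what the 0 h samples held, while the series' design text speaks of fibroblasts with or without mast cells.

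In a mast cell granule the positively charged proteases are packed with heparin or chondroitin sulphate chains on serglycin. Connective tissue mast cells of the mouse hold the chymases Mcpt4 and Cma1 (mMCP-4 and mMCP-5), the tryptases Tpsb2 and Tpsab1 (mMCP-6 and mMCP-7) and Cpa3. Mucosal mast cells of the gut hold Mcpt1 and Mcpt2. Mcpt8 is best known as a basophil protease, Ctsg (cathepsin G) as a protease of neutrophil and mast cell granules, and Gzmb (granzyme B) as a death-inducing protease of cytotoxic lymphocytes that cultured mast cells can also make.

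Several of these genes are close relatives, so the probes decide what each value means. Probes of related proteases, 60 bases each, were compared with one another. Binding of a probe to a relative's transcript was not tested, and probes placed apart share little even where the transcripts are alike. Capitals mark each probe's longest run in common with another protease's probe. The probes are printed 5′ to 3′ as on the array, with positions on mouse build mm9 from the deposited files. The longest run shared by any pair of protease probes was 10 bases, between Mcpt1 and Mcpt2.
Mcpt2, chr14:56663261-56663320: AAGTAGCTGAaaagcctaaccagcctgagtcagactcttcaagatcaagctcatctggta
Cma1, chr14:56561491-56562550: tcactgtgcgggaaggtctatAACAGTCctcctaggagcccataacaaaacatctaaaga
Mcpt8, chr14:56702300-56702674: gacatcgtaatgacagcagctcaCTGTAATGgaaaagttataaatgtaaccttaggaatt
Tpsab1, chr17:25480640-25480699: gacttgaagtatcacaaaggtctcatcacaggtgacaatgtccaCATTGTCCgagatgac
Tpsb2 (its dimmer probe), chr17:25504493-25504552: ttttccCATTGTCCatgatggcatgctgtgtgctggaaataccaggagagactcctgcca
The Cma1 probe shared 7 bases with the Mcpt1 probe, the Mcpt8 probe 8 with the Mcpt4 probe, and the Tpsab1 probe 8 with the dimmer Tpsb2 probe. With the brighter Tpsb2 probe, which stands for the gene, the Tpsab1 probe shared 6. The Cma1 and Mcpt8 probes span 1060 and 375 bases of genome, more than their length of 60, so they lie across exon junctions. With the probes of neighbouring genes included, the longest run was 27 bases, between Mcpt4 and the pseudogene Mcpt-ps1. Signal of either may therefore include the other.

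On both 0 h arrays 9 of the 10 proteases were well above background, and at 24 h 7 in WT and 6 in KO were. Values are log2 signals with each array's 75th percentile set to 0. They are compared between arrays for the same probe only, because brightness also depends on the probe. The spot error of the scanner software is given as a standard error (SE). It covers the spot alone, not culture or labelling, and with 1 array per group there is no replicate check, no test and no p-value.

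Among the connective tissue type, Cma1 gave 4.66 (WT) and 5.25 (KO) on the 0 h arrays, and -4.40 (WT) and -4.17 (KO) on those of 24 h. Both 0 h arrays lay far above both 24 h arrays. Mcpt4 gave 1.40 and 2.57 at 0 h and -5.84 on WT 24 h, and was not well above background on KO 24 h. Tpsb2, the tetrameric tryptase that remains bound to the granule matrix, gave 3.18 and 4.12 at 0 h and -3.76 and -3.75 at 24 h, WT first in each pair. Its second probe gave 2.60, 3.50, -5.12 and -6.02, and on both probes the 24 h signals lay below the 0 h signals.

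Tpsab1 gave -1.95 on WT 0 h and -0.91 on KO 0 h and was not well above background at 24 h in either genotype. Cpa3, which trims the C-terminal residues of peptides cut by chymase, gave 6.19, 6.25, -1.75 and -1.07. Cpa3 was thus nearly level between the genotypes at 0 h and low in both at 24 h.

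Of the mucosal chymases, Mcpt1 was not well above background on any of the 4 arrays. Mcpt2 gave -2.92, -1.67, -5.50 and -6.18, well above background on all 4, with its 24 h signals only 0.66 (WT) and 0.51 (KO) above the lowest signal that counted as well above background on those arrays.

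Of the remaining serine proteases, Gzmb gave 5.45, 5.79, -4.60 and -4.45. Ctsg gave 2.58, 3.57 and -5.66 and was not well above background on KO 24 h. Mcpt8 gave -0.31 and 0.86 at 0 h and -5.56 on KO 24 h, and was not well above background on WT 24 h. In all 3 the 0 h arrays were the high ones.

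**Figure D1:**
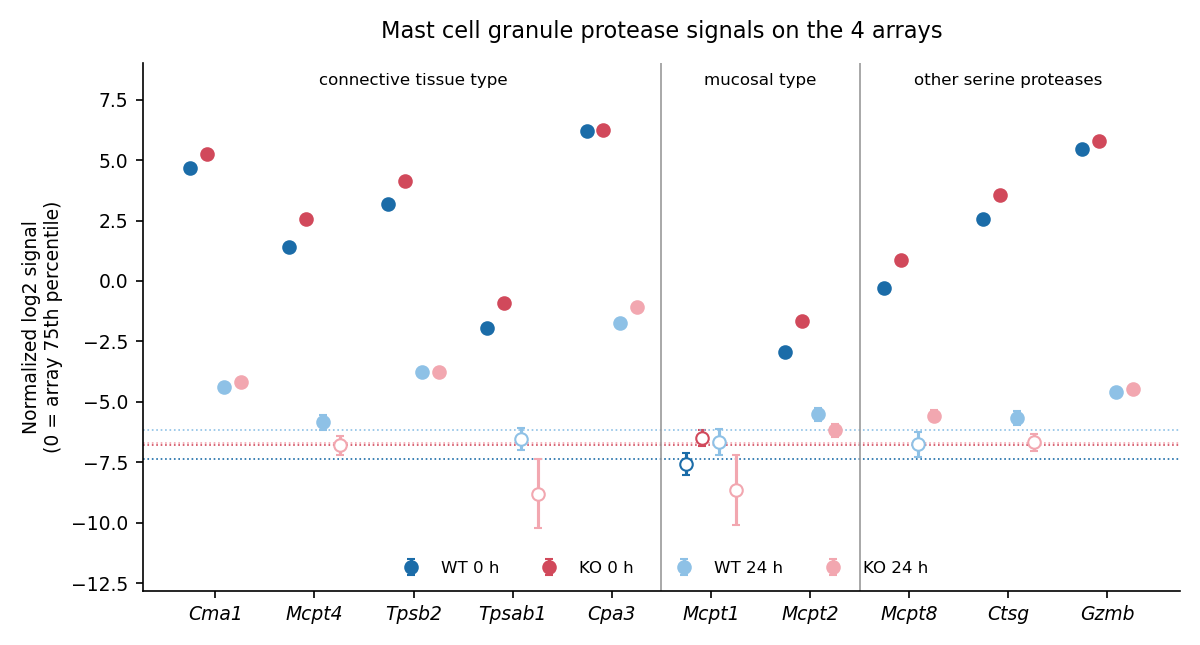
Normalized log2 signal (0 is the array's 75th percentile) of each protease on the 4 arrays, with bars of 1 spot SE; open points were not well above background and dotted lines mark the lowest signal that was, per array. The 0 h points lie above the 24 h points for every gene but Mcpt1, whose 4 points are all open.

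The first comparison asked which proteases differed between the times in each genotype. In WT, 9 of the 9 proteases that could be compared were at least 2-fold lower at 24 h, against 7.44% of the 22314 genes compared. In KO it was again 9 of 9, against 14.7% of 21496 genes. Of the 20975 genes counted in both genotypes, 6.51% were lower in both. No protease was higher at 24 h, where 17.2% (WT) and 8.36% (KO) of genes were. The median of the proteases measured on both arrays was -7.95 in WT (7 genes) and -7.60 in KO (6 genes), beside 0.28 and 0.23 over all genes so measured.

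Gzmb had the largest measured fold in both genotypes, 1060.2-fold higher at 0 h than at 24 h in WT (log2 difference -10.05, SE 0.23) and 1216-fold in KO (-10.25, SE 0.22). Cma1 followed among the measured differences, 532-fold in WT (-9.05, SE 0.23) and 686-fold in KO (-9.42, SE 0.21). For Ctsg the WT fold was 302 (-8.24, SE 0.32). Against a KO 24 h signal that was not well above background it was at least 1206-fold: a bound taken against the array's weakest well-detected probe, or against the gene's own spot if that was brighter.

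Cpa3 was 247-fold (-7.95, SE 0.20) and 160.1-fold (-7.32, SE 0.20) lower at 24 h in WT and KO, leaving 0.405% and 0.625% of the 0 h signal. Tpsb2 was 122-fold (-6.93, SE 0.22) and 235-fold (-7.88, SE 0.21) lower. Mcpt4 was 151-fold lower in WT (-7.23, SE 0.34) and at least 611-fold lower in KO. Tpsab1 was at least 18.6-fold lower in WT and 55.1-fold lower in KO, bounds that are limited by how near its 0 h signal lay to the detection limit. Mcpt8 was at least 58.0-fold lower in WT and 85.5-fold lower in KO (-6.42, SE 0.26).

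Mcpt2 had the smallest measured difference, 5.99-fold lower in WT (-2.58, SE 0.30) and 22.7-fold lower in KO (-4.50, SE 0.31). It kept 16.7% and 4.41% of its 0 h signal, where Cma1 kept 0.188% and 0.146%. The array allowed little more: the 0 h signal of Mcpt2 stood only 3.24 (WT) and 5.02 (KO) above the lowest well-detected signal at 24 h, while that of Cma1 stood 10.82 and 11.94 above it. With Mcpt1 undetected, the mucosal type rests on Mcpt2 alone, and a mucosal against connective tissue contrast was not measurable in these arrays.

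**Figure D2:**
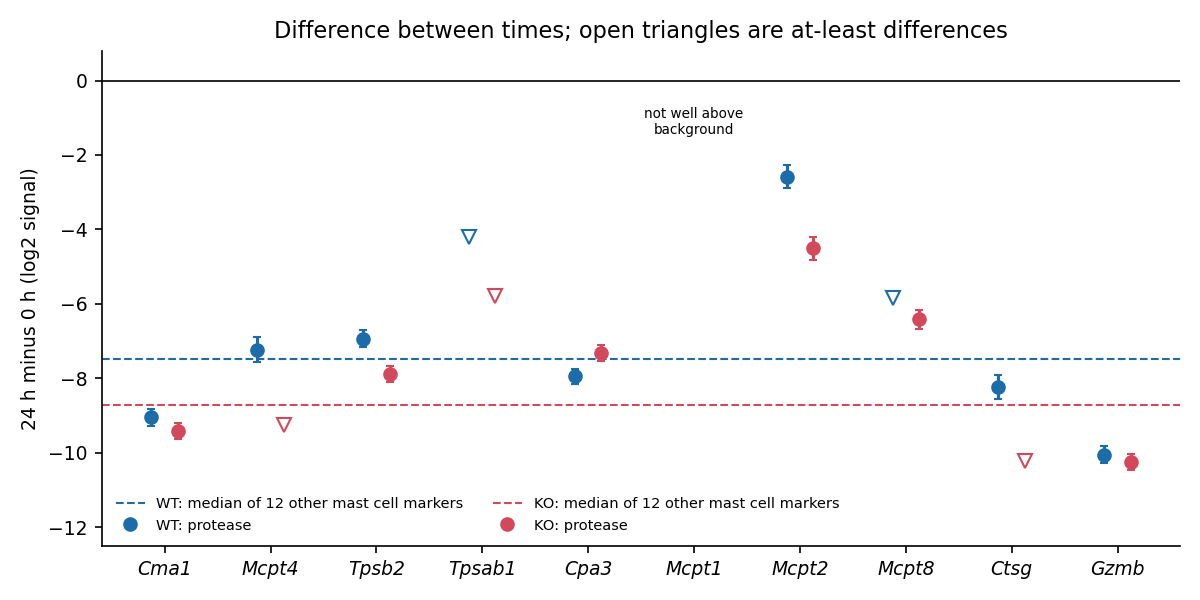
Log2 signal at 24 h minus that at 0 h for each protease in WT and KO, with bars of 1 SE; open triangles are at-least differences and dashed lines the medians of the 12 other mast cell markers (-7.50 in WT and -8.72 in KO, bounds included). All proteases but the undetected Mcpt1 lie below 0, and Mcpt2 lies nearest to it in WT.

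Mast cell genes outside the protease set moved with it. All 12 of 12 other mast cell markers were at least 2-fold lower at 24 h in both genotypes, with medians of -5.99 in WT and -8.41 in KO over the 9 measured in each. Fcer1a, the IgE-binding chain of the high-affinity receptor, differed by -8.99 and -8.41, and Tph1, which makes serotonin, by -10.64 and -9.89. The summed signal of the 10 proteases, in units of the 75th percentile, was 161 (WT) and 208 (KO) at 0 h, and 0.549 and 0.710 at 24 h. The 24 h sums were 0.341% and 0.342% of the 0 h sums. A sum adds different probes, undetected ones included, so its brightest probes weigh most. The share left was larger in KO than in WT for Cpa3 (0.405% in WT, 0.625% in KO). For Cma1, Gzmb, Tpsb2 and Mcpt2, the others measured on all 4 arrays, it was smaller in KO. For the 12 mast cell markers the sums were 229, 328, 0.822 and 1.74, or 0.359% and 0.532% left. In bulk RNA such as this, fewer mast cells and less RNA per mast cell cannot be told apart.

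Of 10 fibroblast markers, 4 were at least 2-fold higher and 0 lower at 24 h in WT, and 4 higher and 1 lower in KO. Their sum over 10 genes was 139, 116, 208 and 191 in the same order, and 9 of 10 were well above background on each array. Lum, a matrix proteoglycan, was well above background in WT at 24 h only, and Thy1, a surface glycoprotein, was not there. The targeted gene Lpar1 gave -3.20 (WT) and -3.43 (KO) at 0 h and -3.15 and -3.61 at 24 h, well above background each time. A CRISPR change can leave a transcript in place, so this is no check of the genotype labels. Between 62.1% and 72.7% of the 43020 spots that are not controls were well above background, and 0 were saturated.

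Other leukocytes use some of these proteases. Of 9 neutrophil markers, Ltf and Ngp, which encode granule proteins, were not well above background on any array. Elane (neutrophil elastase) gave -3.09, -3.30, -2.81 and -3.54 and Prtn3 (proteinase 3) -6.80, -6.54, -5.92 and -6.33. Prtn3 lay near the lowest well-detected signals of the arrays (-7.36, -6.77, -6.16 and -6.69). The 0 h signals of Elane also stood too close to those of 24 h for a drop as large as that of Ctsg (-8.24 in WT) to be seen. In WT 1 of the 7 neutrophil markers compared was at least 2-fold lower at 24 h and 3 were higher, and the lowest measured difference was -1.33. In KO 0 of 6 were lower and 0 higher. The neutrophil sum was 1.44, 0.336, 1.87 and 0.441.

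Of 8 cytotoxic lymphocyte markers, Klrd1, Klrk1 and Gzma were not well above background on any array. Prf1, which encodes the pore-forming protein delivered together with Gzmb, differed between the times by 0.70 (WT) and 0.59 (KO). The cytotoxic sum was 0.632, 0.773, 0.659 and 0.539. The median of these markers at 0 h was -6.94 (WT) and -5.78 (KO), near the detection limit. A drop as large as that of Gzmb (1060.2-fold and 1216-fold) could therefore not have been seen in them. Of 4 basophil markers, 2 were at least 2-fold lower at 24 h in WT and 0 higher, and in KO 3 were lower and 1 higher. Cd200r3, which is also among the mast cell markers, and Il4 gave the largest bounds, while Prss34, a basophil protease, gave only -5.57 and -5.17 at 0 h. The list summed to 3.86 and 8.73 at 0 h and 0.032 and 0.073 at 24 h. Pan-leukocyte markers were lower at 24 h too, 7 of 8 in WT and 8 of 8 in KO. The parts of neutrophils, cytotoxic lymphocytes and basophils in the Ctsg, Gzmb and Mcpt8 signals were not tested.

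Genes for storing and processing the proteases moved in part. Of 12 such genes, 6 were at least 2-fold lower at 24 h and 0 higher in WT, and 6 lower and 1 higher in KO, with medians of -0.077 and -0.80 over those measured. Srgn, the serglycin core protein that holds the proteases in the granule, differed by -9.68 in WT and -9.53 in KO. Ndst2, a heparin-sulphating enzyme, differed by -2.18 and -3.05, and Rab27b, a regulator of granule release, by -2.41 and -2.02. Ctsb, a lysosomal protease of most cell types, differed by 0.44 and 1.02.

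Ctsc, dipeptidyl peptidase I, removes the activating dipeptide from granule serine proteases. It was picked out after its values were seen: 1.1 (WT) and 2.25 (KO) at 0 h, -0.96 in KO at 24 h, and not well above background in WT at 24 h. It was at least 153-fold lower at 24 h in WT and 9.27-fold lower in KO, and at 24 h at least 36.8-fold higher in KO than in WT. No protease showed such a gap between genotypes at 24 h.

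Protease inhibitors were mixed. Of 10, in WT 2 were at least 2-fold lower and 1 higher at 24 h, and in KO 3 lower and 2 higher. Serpinb1a, an inhibitor of neutrophil elastase and cathepsin G, differed by -2.50 in WT and -5.85 in KO. Slpi, a secreted inhibitor of leukocyte proteases, differed by 0.20 and 1.64.

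The second comparison asked whether the proteases differed between KO and WT at 0 h. In the KO array 4 of 9 were at least 2-fold higher (Mcpt2, Mcpt4, Mcpt8 and Tpsab1) and 0 lower, against 10.9% of 22362 genes higher and 4.44% lower. All 9 differences were above 0. The median was 0.98 for the proteases, 0.96 for the 12 other mast cell markers and 0.056 over all genes. Over 8 pan-leukocyte markers 6 were at least 2-fold higher in KO and the sum was 37.8 in WT and 74.4 in KO, while the fibroblast sum was 139 and 116. Single fibroblast markers went both ways, 3 at least 2-fold lower in KO and 2 higher, from -2.67 (Pdgfra) to 10.74 (Thy1). The part of the share of mast cell RNA in these differences was not tested.

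The members spread widely around that value. With an SE of 0.20 each, Mcpt2 differed by 1.25, Mcpt4 by 1.17, Mcpt8 by 1.16, Tpsab1 by 1.04, Ctsg by 0.98 and Tpsb2 by 0.95. Cma1 differed by 0.59, Gzmb by 0.35 and Cpa3 by 0.057. Cma1, Gzmb and Cpa3, which differed least, were also the 3 with the brightest probes at 0 h.

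This order was followed into a wider set, chosen after the values were seen: the 464 genes whose probe signal was at least 16-fold lower at 24 h in both genotypes, which include 8 proteases. Only 142 of the 464 were well above background on both 24 h arrays, and all 464 were on both 0 h arrays. The same 0 h signals entered the choice of the set, so its genotype differences at 0 h are a description only. Among the 20 of them brightest at 0 h, Cma1, Gzmb and Cpa3 included, the median KO minus WT difference was 0.56 and 4 were at least 2-fold higher. Among the other 444 it was 1.12, with 81.3% at least 2-fold higher. Genes outside the set that were as bright (1014 of them) had a median of -0.14, and dimmer ones (18839) 0.064. No protease probe had saturated pixels, and the raw mean intensity of Cpa3 at 0 h was 92434 (WT) and 78715 (KO), below the highest on those arrays (186764 and 177974). The part of probe brightness in the small difference of these 3 genes was not tested further.

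**Figure D3:**
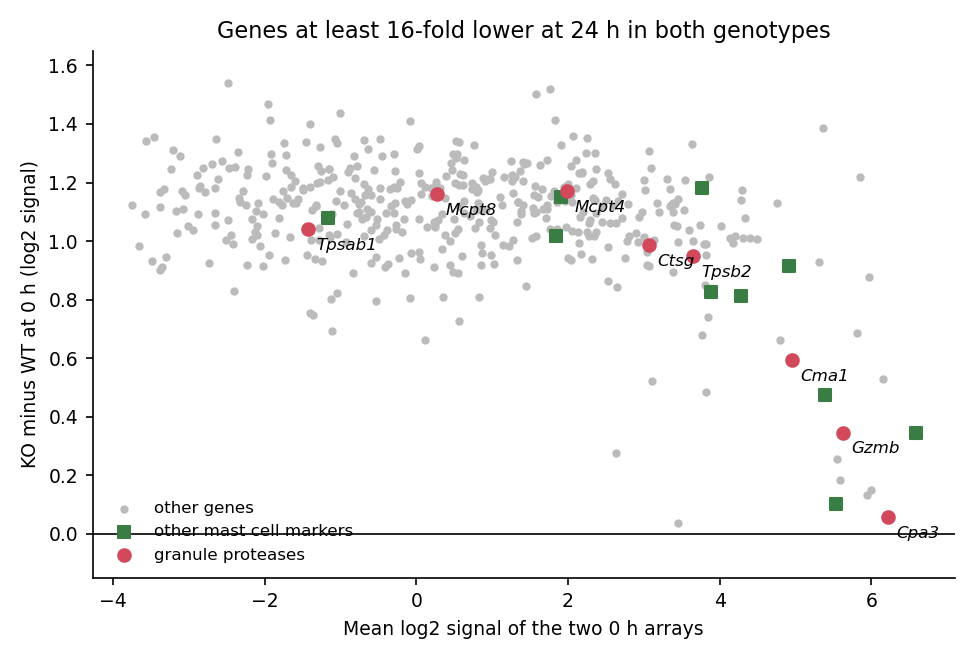
KO minus WT log2 difference at 0 h against the mean log2 signal of the 0 h arrays, for the 464 genes at least 16-fold lower at 24 h in both genotypes; each point is a gene. Most points lie near 1.12, and Cma1, Gzmb and Cpa3 lie at 0.59, 0.35 and 0.057 among the brightest.

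At 24 h, 1 of 8 proteases compared was at least 2-fold lower in KO and 0 higher, against 19.9% of 20898 genes lower and 6.28% higher. That one was Ctsg, at least 2.02-fold lower, from a WT signal near the lowest that could be detected. The median over the 5 measured was 0.15, beside 0.34 for the other mast cell markers and -0.093 over all genes. These values turn with the processing. Under quantile normalization 0 proteases were lower and 1 higher, and with normexp 0 were called. Centring on the fibroblast markers gave 3 lower and a median of -0.25, and no filter on dim probes gave 3 lower, 1 higher and a median of -0.34. The shares of all genes called under these settings were not taken.

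Cpa3 had the largest measured difference at 24 h, 0.68 higher in KO (SE 0.20, 1.60-fold). Cma1 differed by 0.23 (SE 0.23), Gzmb by 0.15 (SE 0.24), Tpsb2 by 0.003 (SE 0.22) and Mcpt2 by -0.67 (SE 0.38). Centred on the fibroblast markers, Cpa3 differed by 0.28 and Mcpt2 by -1.08. The second Tpsb2 probe gave -0.90, so the 2 probes of this gene disagree at this low level.

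The last comparison asked whether the difference between the times was itself different in KO. It could be taken for the 5 proteases measured on all 4 arrays, as the KO difference minus the WT difference. Mcpt2 had -1.92 (SE 0.43), Tpsb2 -0.94 (SE 0.30), Cma1 -0.37 (SE 0.31), Gzmb -0.20 (SE 0.31) and Cpa3 0.62 (SE 0.29). The median was -0.37, beside -0.31 for 8 mast cell markers and 0.032 for 17116 genes. Of those genes 13.3% were at least 2-fold below 0 and 4.72% at least 2-fold above, and of the 5 proteases 1, Mcpt2, passed that mark. It did not under quantile normalization (-0.98) or normexp (-0.84), while centring on the fibroblast markers put 4 of the 5 at least 2-fold below 0, all but Cpa3. That centring shifts the difference between the times of every gene alike, by -0.24 in WT and -1.15 in KO. The share of all genes past the mark under it was not taken, so the 4 have no background beside them. With the mean of its probes Tpsb2 passed too (-1.38).

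The genes lie in 3 places of the genome. Cma1, Mcpt1, Mcpt2, Mcpt4, Mcpt8, Ctsg and Gzmb share the chymase locus, where their probes span 316 kb at chr14:56561491-56877975 (mm9). Within 60 kb of that span lay 19 probes of other genes, of which 14 were well above background on both 0 h arrays. At 24 h, 10 of the 19 were at least 2-fold lower in both genotypes and 0 higher in both, where 6.51% of all genes were lower in both.

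Neighbours in the locus, picked out after their values were seen, differed among themselves. Mcpt-ps1 was at least 85.3-fold lower in WT and 269-fold lower in KO. Cma2, a chymase relative, was 8.07-fold and 19.2-fold lower. Gzmg, Gzmn and Gzmf, granzymes of activated lymphocytes, were not well above background on any of the 4 arrays, and Mcpt9 was higher by 1.21 (log2) at 24 h in WT but at least 1.31-fold lower in KO, from 0 h signals of -6.91 and -6.30 near the detection limit.

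Tpsab1 and Tpsb2 lie 24.2 kb apart on chromosome 17 with the transmembrane tryptase Tpsg1, whose signal was 0.39 (WT) and 1.31 (KO) at 0 h and not well above background at 24 h (at least 94.1-fold lower in WT). It was the only 1 of 7 neighbouring probes lower in both genotypes. Beside Cpa3 on chromosome 3, Cpb1, a pancreatic type carboxypeptidase, gave -1.15 and 0.20 at 0 h and was at least 32.3-fold lower in WT. Of 18 paralogs of the proteases on a list, 9 could be compared: 4 were lower and 2 higher at 24 h in WT, and 6 lower and 0 higher in KO.

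**Figure D4:**
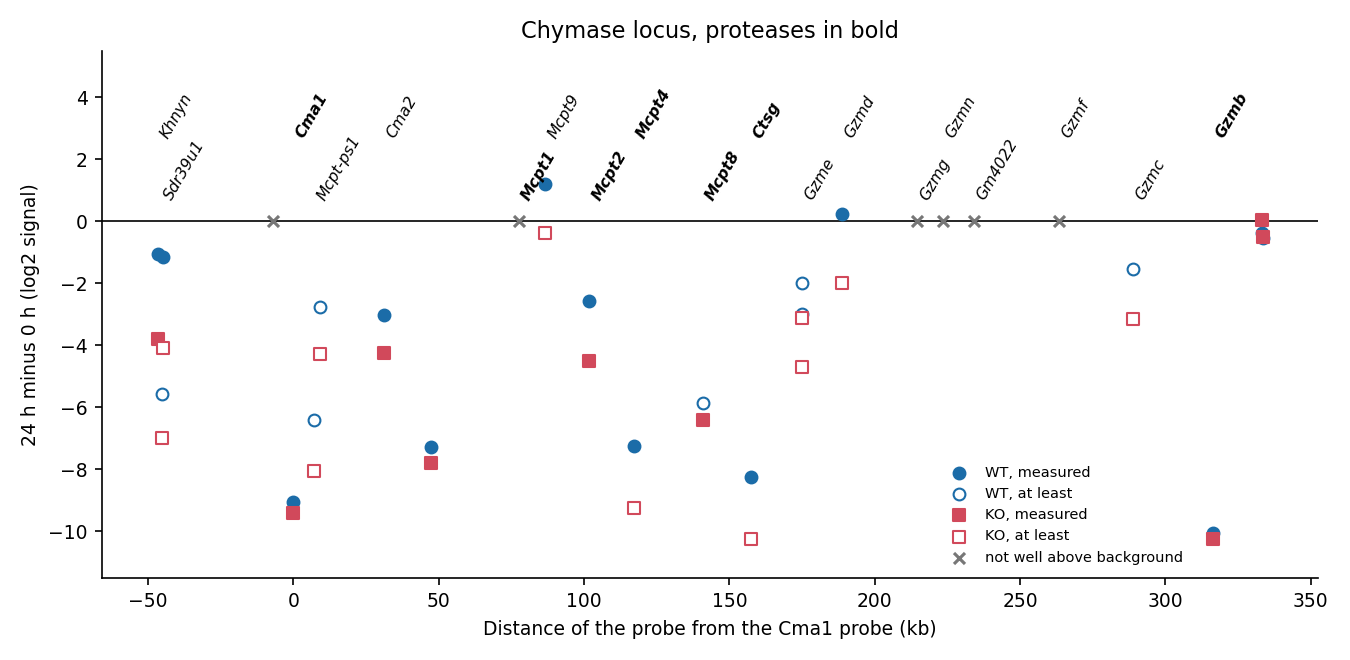
Log2 signal at 24 h minus that at 0 h for each probe of the chymase locus, by distance (kb) from the Cma1 probe, with WT as circles and KO as squares; filled marks are measured, open marks at-least differences and crosses probes not well above background. The proteases in bold lie between -2.58 (Mcpt2 in WT) and -10.25 (Gzmb in KO) except Mcpt1, and the granzyme probes between Gzmd and Gzmc are crosses.

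The promoters of the set were also compared, Mcpt1 included although it was detected on no array. A part of the promoters in the differences between the times was not tested. RefSeq (GRCm38.p6) gave an entry for 7 of the 10, and Mcpt2, Tpsb2 and Tpsab1 had none in the table used. The letters GATAA, the core read by GATA factors such as Gata2 of mast cells, or the reverse TTATC, occurred in the 250 bases before the gene start of 4 of the 7, against 22.6% of 32851 promoters. The 4 are printed 5′ to 3′ on the gene's strand, with that motif in capitals.
Cma1, chr14:55944676-55944925, minus strand: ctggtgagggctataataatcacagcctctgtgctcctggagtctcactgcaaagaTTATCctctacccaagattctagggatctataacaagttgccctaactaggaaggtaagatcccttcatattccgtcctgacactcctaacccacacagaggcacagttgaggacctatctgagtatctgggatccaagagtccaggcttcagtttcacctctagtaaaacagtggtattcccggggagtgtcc
Mcpt4, chr14:56062311-56062560, minus strand: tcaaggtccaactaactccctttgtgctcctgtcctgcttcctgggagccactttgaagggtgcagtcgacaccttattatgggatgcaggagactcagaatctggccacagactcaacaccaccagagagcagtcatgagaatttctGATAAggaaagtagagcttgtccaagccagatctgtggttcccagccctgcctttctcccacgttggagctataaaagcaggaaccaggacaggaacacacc
Mcpt1, chr14:56017714-56017963, plus strand: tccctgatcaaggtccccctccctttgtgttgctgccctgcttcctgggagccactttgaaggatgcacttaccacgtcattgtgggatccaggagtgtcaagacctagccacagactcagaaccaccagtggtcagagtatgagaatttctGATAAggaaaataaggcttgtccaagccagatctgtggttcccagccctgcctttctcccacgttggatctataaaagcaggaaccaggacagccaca
Cpa3, chr3:20242182-20242431, minus strand: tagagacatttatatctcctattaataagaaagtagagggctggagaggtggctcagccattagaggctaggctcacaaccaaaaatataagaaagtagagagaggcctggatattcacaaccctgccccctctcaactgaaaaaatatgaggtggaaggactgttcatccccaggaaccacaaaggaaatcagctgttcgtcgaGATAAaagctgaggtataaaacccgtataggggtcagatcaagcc
The motif began 194, 102, 98 and 45 bases before the gene start in Cma1, Mcpt4, Mcpt1 and Cpa3. Mcpt1 and Mcpt4 were 81.5% identical over 254 aligned columns, and the next closest pair of the 7 was 51.5% identical. Yet Mcpt4 was detected at 0 h in both genotypes and Mcpt1 on no array. TATAAA or its reverse TTTATA occurred in 4 of the 7 (Cpa3, Mcpt1, Mcpt4 and Ctsg) against 12.4% of promoters, and CATGTG or CACATG in 1 (Ctsg) against 12.3%. No match of one motif overlapped a match of another, and a match is a description of the sequence only.

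The genes most like the proteases in pattern were found by the root mean square difference from the proteases' median pattern over the 4 arrays, each gene centred on its own mean, among 14833 candidates. They were Tbxas1 (0.16 log2), which makes thromboxane, Rgs13 (0.19), a regulator of G protein signalling, Xlr4a (0.20), Ppp1r3g (0.21) and Gimap5 (0.21). Of these 5, only Tbxas1 was well above background at 24 h, and the median pattern at 24 h also takes in undetected proteases, so the order among the 5 has no meaning. The proteases themselves lay between 0.32 (Tpsb2) and 2.19 (Mcpt2) from their median pattern.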

How the data were processed

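Per the file headers, Agilent Feature Extraction 12.1.1.1 produced the spot intensity. The authors' value table gives a ratio, the processed intensity over its array's 75th percentile.

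From the processed intensity, control and outlier spots were left out, log2 was taken and each array's 75th percentile over 43020 spots was subtracted. Of 39429 probes, 29110 were named through accessions in RefSeq (GRCm38.p6), and the brightest probe stood for a gene. A call is a difference of at least 2-fold, measured or as an at-least bound. The calls were tested on simulated data with the same small error at every signal. Larger spot errors near the detection limit were not covered. Alternatives were quantile normalization, normexp (offset 50, limma 3.58.1 in R 4.3.3) with quantile normalization, the value table, no filter on dim probes, the mean of all probes, and centring on fibroblast markers. Named genes are all 10 proteases and, per list, up to 4 genes with the largest differences measured in both genotypes, beside markers not well above background and neighbours stated as picked later. The proteases and lists were chosen with earlier results of these data known. Python 3.11.15 was used.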

Additional observations from a re-analysis of the deposited data

Results flagged for a closer look

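Mcpt2 was higher in KO than in WT at 0 h (log2 difference 1.25, SE 0.20) and lower in KO at 24 h (-0.67, SE 0.38). It was singled out because the genotype difference has opposite signs at the 2 times, and the change of sign was not tested. Under quantile normalization the 24 h difference was 0.25, and with normexp and quantile normalization 0.10, so the opposite sign was not seen there. Both 24 h signals lay within 0.66 of the lowest well-detected signal on their array.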

How the results depend on the processing

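No paired analysis was possible because each group has 1 array. The 9 proteases compared between the times were at least 2-fold lower at 24 h in both genotypes under all 6 alternatives. Centring on the fibroblast markers shifts every difference by -0.24 (WT times), -1.15 (KO times), 0.51 (KO minus WT at 0 h) and -0.40 (at 24 h). It gave 7 calls in place of 4 at 0 h and 3 in place of 1 at 24 h, and medians of -8.18 (WT times), -8.75 (KO times), 1.49 (0 h), -0.25 (24 h) and -1.28 (difference of differences). The shift also moves the share of all genes called, which was not taken under this setting. Without the filter on dim probes there were 4 calls at 24 h, and the medians were -7.08, -7.88, -0.34 (24 h) and -1.43 (difference of differences). With normexp there were 0 calls at 24 h and the medians between the times were -6.30 and -7.12. Quantile normalization gave a 24 h median of 0.54, and the mean of all probes a KO median between the times of -8.01. Of 238 values of single proteases under the alternatives, 167 stayed within 1 SE, 71 moved and 0 changed sign as a call. At 24 h the signals of Mcpt4, Ctsg, Mcpt8, Tpsab1 and Mcpt2 lay near or below the lowest well-detected level, which limits their folds and genotype differences.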
